A study of Mus musculus with 6 samples.

Results

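The insulin-like growth factor (IGF) system was described here as 10 genes, namely the ligands Igf1 and Igf2, the receptors Igf1r and Igf2r, and the binding proteins Igfbp2 to Igfbp7. All probe sets whose platform annotation gave one of these symbols alone were taken, which made 28 of the 45037 probe sets tested, and the 10 genes were among 18193 with such a symbol. The genes were selected with the tumour against healthy-skin values of these arrays already known, above all the rise of Igfbp3. Every value from that contrast is therefore a description of these samples and no independent evidence. The arrays measured lymphatic endothelial cells (LECs), which line lymphatic vessels, in 2 groups of 3 samples. One group was LECs of mammary skin from healthy balb-c/nude mice, which lack T cells. The other came from xenografts of MDA-MB-435, a human line used as a breast cancer model whose origin was later found to be a melanoma, grown under the skin and removed 8 weeks after injection. In both, LECs were found with a short LYVE-1 stain and cut out by laser capture, and their RNA had 1 round of Ribo-Spia amplification. Per the labels the replicates are biological, but no label names the animal behind a sample.

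IGF-I and IGF-II are secreted growth factors that act through the receptor tyrosine kinase encoded by Igf1r. The product of Igf2r binds IGF-II and carries it to lysosomes, and it also sorts lysosomal enzymes. The binding proteins hold the ligands outside the cell, extend or limit their access to the receptor, and are cut by proteases that release the ligand. Several of them also have effects that do not need IGF, and Igfbp7, which binds IGF weakly, is known as a product of vessel endothelium.

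Igfbp3 was the gene of this system that stood out, with much more signal in every tumour sample than in any healthy-skin sample on both of its probe sets. Igfbp7 had higher mean signal in tumours on its brightest probe set, but 1 tumour sample lay among the healthy ones. Igfbp5, and Igfbp4 on its brightest probe set, varied more between samples of the same group than between the groups, while 1 dimmer Igfbp4 probe set was higher in all tumour samples. Each ligand and receptor had 1 probe set with higher signal in all tumour samples. For Igf2, Igf1r and Igf2r that probe set was at or near background in healthy skin, and for Igf1r also in 1 tumour sample. On the other probe sets of these genes the groups overlapped, in part at background.

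The sequences just before the transcription starts of Igfbp3, Igfbp7 and Igfbp4 are shown because these binding proteins carried the largest differences or the largest spread between samples. They are RefSeq windows of 250 bases on build GRCm38.p6, written along the gene's strand up to the base before the start. The Igfbp3 window is chr11:7213924-7214173 on the minus strand, the Igfbp7 window chr5:77408046-77408295 on the minus strand and the Igfbp4 window chr11:99040994-99041243 on the plus strand. Capitals mark TATAAA or TATATA, letters of a TATA box, and GGGCGG, the GC box letters, each searched on both strands.
Igfbp3: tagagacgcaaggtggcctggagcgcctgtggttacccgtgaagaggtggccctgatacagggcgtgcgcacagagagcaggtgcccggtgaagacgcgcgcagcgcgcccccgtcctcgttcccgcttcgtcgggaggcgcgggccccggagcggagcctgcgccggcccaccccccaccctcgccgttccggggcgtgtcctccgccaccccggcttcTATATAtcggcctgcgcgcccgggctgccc
Igfbp7: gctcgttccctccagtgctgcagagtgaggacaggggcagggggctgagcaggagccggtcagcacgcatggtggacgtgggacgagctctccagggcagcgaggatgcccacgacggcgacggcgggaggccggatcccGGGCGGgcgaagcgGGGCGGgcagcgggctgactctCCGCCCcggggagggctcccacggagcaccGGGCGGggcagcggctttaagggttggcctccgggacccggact
Igfbp4: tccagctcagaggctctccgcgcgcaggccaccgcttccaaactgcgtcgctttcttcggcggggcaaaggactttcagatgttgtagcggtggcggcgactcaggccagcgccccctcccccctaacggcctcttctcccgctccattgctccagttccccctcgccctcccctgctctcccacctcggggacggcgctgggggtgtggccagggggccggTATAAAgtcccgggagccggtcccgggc
The Igfbp3 window held 1 TATATA, whose first base lay 30 bases before the start, and no GGGCGG. The Igfbp7 window held 4 GGGCGG and neither TATA form, and the Igfbp4 window held 1 TATAAA that began 28 bases before the start. Among 32851 RefSeq windows of this length TATATA occurred in 5.25%, TATAAA in 12.4% and GGGCGG in 32.7%. In GRCm38.p6 Igfbp3 lies next to Igfbp1 on chromosome 11, and Igfbp2 next to Igfbp5 on chromosome 1. The Igfbp3 and Igfbp4 windows lie inside the spans annotated for these genes, which begin further upstream.

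The values are probe set signals as log2 intensity, and a level is compared only within a probe set, since brightness depends on the probes as well as on the RNA. The background of an array was set at percentile 95 of its 27 probe sets for bacterial genes and lay between 2.96 and 3.91 (log2). Of the 28 IGF probe sets, 18 were above their array's background on all 6 arrays, 23 on at least 3 arrays and 2 on none. The LEC label was checked against 10 measured lymphatic endothelial markers, whose mean lay between 5.28 and 6.29 in healthy skin and between 6.68 and 6.96 in tumours. From 7 to 9 of them were above background in healthy skin and 8 or 9 in tumours, and 8 had higher and 2 lower means in tumours. Flt4 and Pdpn were above background on every array, with 7.30 to 8.50 and 6.37 to 8.07 in healthy skin and 9.49 to 9.63 and 8.11 to 8.27 in tumours. Prox1 was above background on all arrays too. Lyve1, the gene of the capture stain, had 3.21, 7.58 and 6.81 in healthy skin, with replicate 1 not above background. In tumours it had 9.64, 9.41 and 9.65, a difference of 3.70 without overlap. Reln had like means of 6.73 and 6.75, and the 2 lower markers were near background, with Foxc2 above it on 1 healthy-skin array and no tumour array and Sema3d on 1 array of each group. The mean of 13 pan-endothelial markers lay between 4.53 and 4.62 in healthy skin and between 5.88 and 6.01 in tumours, and all 13 had higher means in tumours. Of 12 keratinocyte markers 11 were lower in tumours, and their mean went from between 6.70 and 7.44 to between 4.03 and 5.48. These shifts in endothelial genes and in other cells' genes moved with the groups and so with every difference given below. Their part in it was not tested. In such samples fewer cells of a type and less RNA per cell cannot be told apart.

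**Figure D1:**
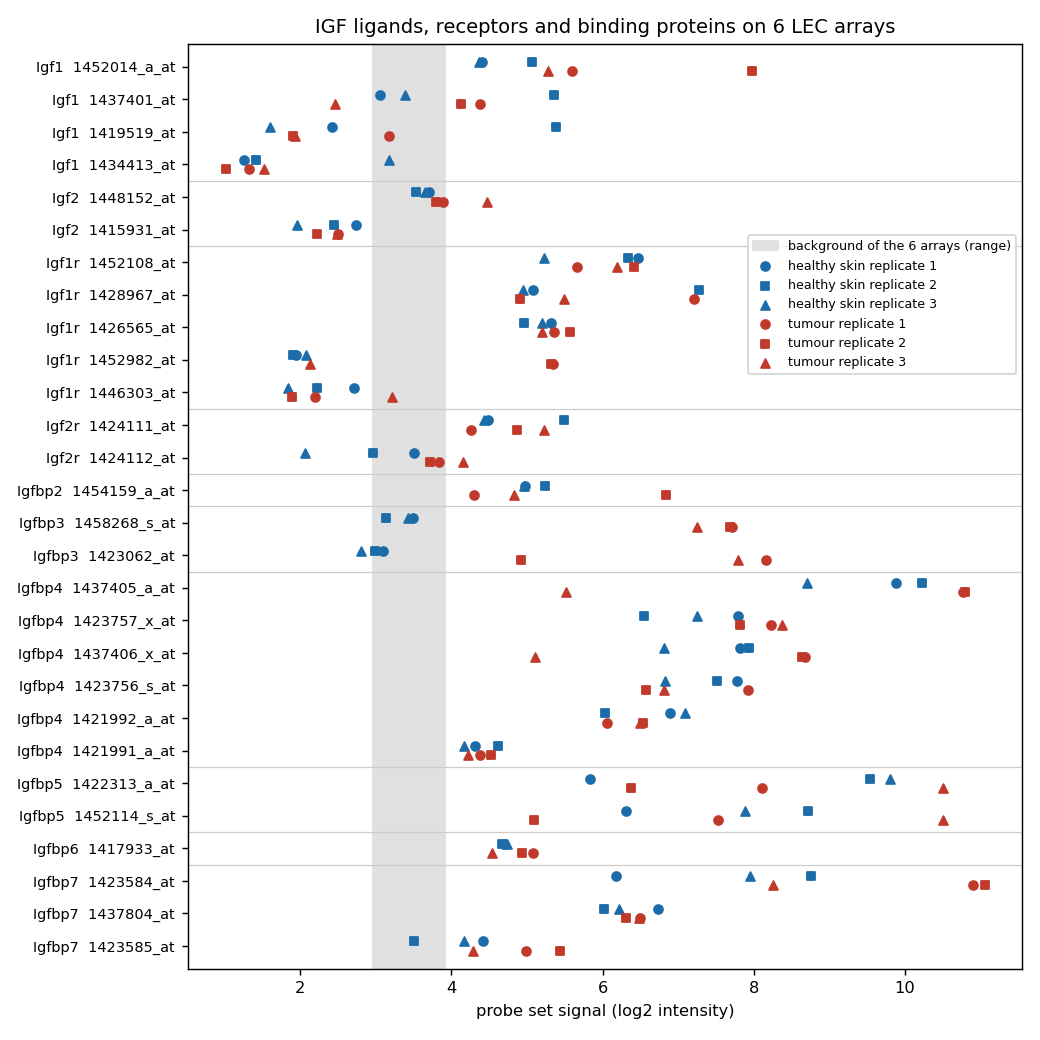
Signal (log2 intensity, horizontal axis) of each of the 28 IGF probe sets (rows, grouped by gene) on the 6 arrays; blue symbols are healthy skin, red symbols tumours, symbol shapes give the replicate, and the grey band spans the background of the 6 arrays. Both Igfbp3 probe sets have all red symbols to the right of all blue ones, and tumour replicate 3 (red triangles) lies far left on 2 Igfbp4 probe sets and far right on both Igfbp5 probe sets.

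Igfbp3 encodes the main carrier of IGFs in blood, a secreted protein that is also made locally in tissues. Its brighter probe set, 1458268_s_at, had 3.50, 3.13 and 3.43 in healthy-skin replicates 1, 2 and 3 and 7.71, 7.68 and 7.24 in the tumour replicates. The groups were far apart, and the samples within each lay within 0.37 and 0.47 of one another. The log2 difference of the measured means was 4.19 with a standard error of 0.28. Only 1 of the 3 healthy-skin samples was above background, and with the others set to the background of their arrays the healthy mean was 3.51 in place of 3.35. The second probe set, 1423062_at, had 3.10, 2.98 and 2.81 in healthy skin, all below background, and 8.16, 4.92 and 7.79 in tumours. It placed tumour replicate 2 lowest, whereas the first probe set put that sample level with replicate 1. Counted from the background of the healthy arrays, the mean signal of 1423062_at was at least 12.2-fold higher in tumours (measured means 2.96 ± 0.15 and 6.96 ± 1.77, SD, n = 3, limma adjusted p = 0.441). Such a fold, here and below, compares group means and leaves out the spread between samples.

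In limma's test over all 45037 probe sets, 1 of the 28 IGF probe sets passed an adjusted p of 0.05, namely 1458268_s_at (limma adjusted p = 0.0412). In all 0.00444% of probe sets passed. The other 27 IGF probe sets had limma adjusted p between 0.441 and 0.997. No healthy and tumour values overlapped in 7 IGF probe sets, all higher in tumours, where 6.22% of all probe sets were higher and 4.91% lower in this way. The median difference was 0.11 over the IGF probe sets and 0.06 over all probe sets, and 19 of the 28 were above 0, against 55.5% of all. Since the genes were picked on this contrast, nothing is read from these counts. The call of 1458268_s_at did not survive leaving out any single sample except tumour replicate 2, and its limma adjusted p then ranged from 0.0454 to 0.285. It was also lost with the replicate number as a block (limma adjusted p = 0.162), after centring on array medians (0.0559), with trended and robust eBayes (0.0596), with a pseudocount of 16 (0.0522) and when the spiked hybridization controls entered as a covariate (0.422). Without tumour replicate 2 the second probe set passed as well, with a difference of 5.01 (limma adjusted p = 0.0235).

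**Figure D2:**
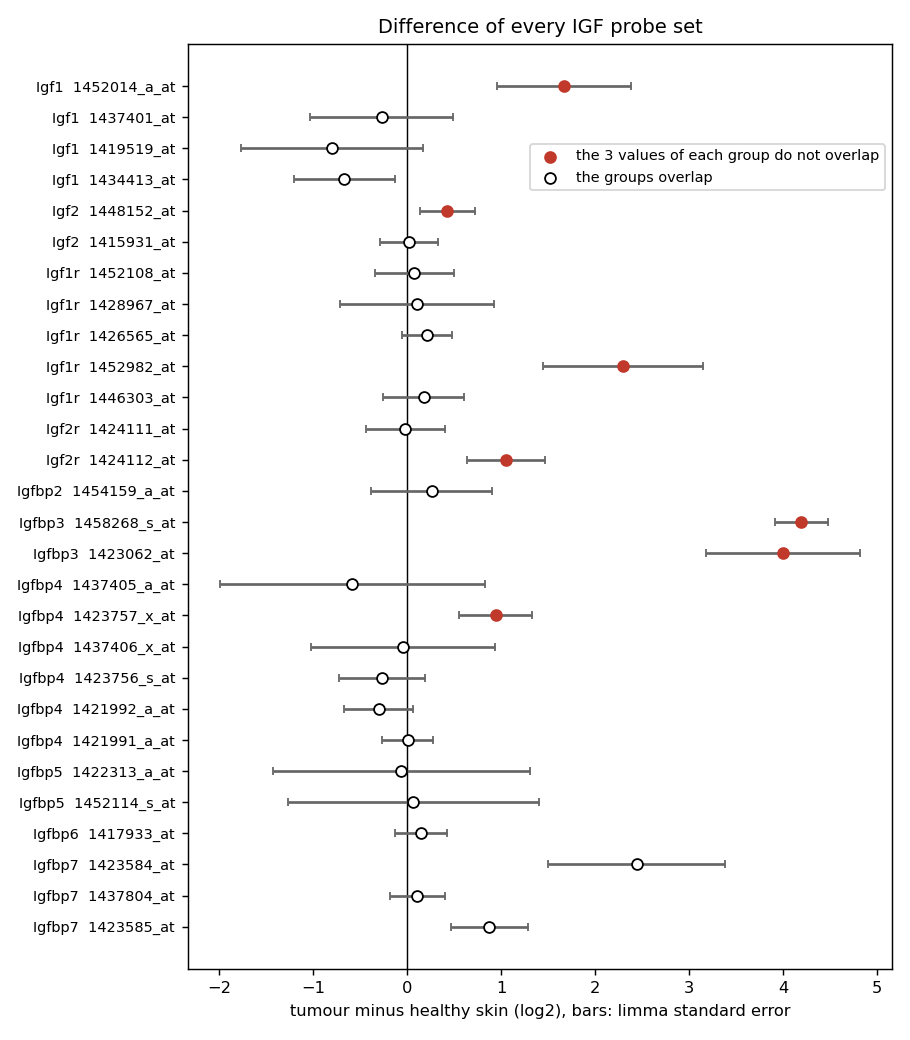
Mean tumour minus mean healthy-skin signal (log2, horizontal axis) of each IGF probe set, with bars of 1 limma standard error; red points mark the 7 probe sets whose groups do not overlap. The Igfbp3 probe sets lie near 4, whereas different probe sets of Igf1, Igf1r, Igf2r, Igfbp4 and Igfbp7 lie far apart for the same gene, some of them at background.

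Igfbp7 encodes a secreted protein deposited in the vessel basement membrane. On 1423584_at it had 6.18, 8.75 and 7.95 in healthy skin and 10.89, 11.05 and 8.25 in tumours. Tumour replicates 1 and 2 were above every healthy sample, and replicate 3 lay below healthy-skin replicate 2. The means were 7.63 ± 1.32 and 10.07 ± 1.57 (SD, n = 3), a difference of 2.44 with a standard error of 0.94. It did not pass, and without tumour replicate 3 it was 3.35. The dimmer probe set 1423585_at had 4.41, 3.50 and 4.16 in healthy skin and 4.99, 5.43 and 4.29 in tumours, in the same order of the tumour samples. The remaining one, 1437804_at, differed by 0.11 and stayed between 6.01 and 6.73 on all arrays.

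Igfbp4 encodes a binding protein that mostly inhibits IGF action until the protease PAPP-A cuts it. Its brightest probe set, 1437405_a_at, had 9.88, 10.22 and 8.70 in healthy skin and 10.76, 10.79 and 5.51 in tumours. Tumour replicate 3 was by far the lowest sample, and the other tumour samples were the highest. The tumour SD of 3.04 was larger than that of 99.9% of all probe sets, and the mean difference of -0.58 had a standard error of 1.41. Without tumour replicate 3 that difference was 1.17, and without tumour replicate 2 it was -1.47. The probe set 1437406_x_at had the same drop, with 8.67, 8.64 and 5.10 in tumours. In contrast, 1423757_x_at, went the other way in that sample, with 7.79, 6.54 and 7.25 in healthy skin and 8.22, 7.82 and 8.38 in tumours. The groups did not overlap there (difference 0.95, standard error 0.39). The remaining Igfbp4 probe sets differed by between -0.30 and 0.01. Names ending in _x_at or _s_at mark probe sets whose probes can also match other transcripts. The Igfbp3 probe set 1458268_s_at has such a name.

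Igfbp5 encodes a binding protein that attaches to extracellular matrix and bone mineral. Its probe set 1422313_a_at had 5.83, 9.54 and 9.80 in healthy skin and 8.10, 6.37 and 10.50 in tumours. The second, 1452114_s_at, had 6.31, 8.71 and 7.88 in healthy skin and 7.53, 5.09 and 10.50 in tumours. Both put tumour replicate 3 highest and healthy-skin replicate 1 and tumour replicate 2 lowest, so that the groups overlapped fully. The differences were -0.06 and 0.07, with standard errors of 1.37 and 1.34. These errors leave room for a difference of several-fold in either direction. Tumour replicate 3 was thus the lowest sample on 2 Igfbp4 probe sets and the highest on both Igfbp5 probe sets.

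Cell type markers also set tumour replicate 3 apart. The mean of 10 fibroblast markers was 5.76 there, against 8.28 and 8.86 in tumour replicates 1 and 2 and between 7.67 and 9.11 in healthy skin. In that sample 8 of the 10 were above background, with Lum and Dpt below it, and on every other array all 10 were above. The mean of 10 pericyte and smooth muscle markers was 4.92 in tumour replicate 3 and 6.07 and 6.50 in the others, with a healthy-skin range from 5.10 to 5.39. The pan-endothelial mean of that sample, 5.95, lay between those of the other tumour samples. Among the 3 tumour samples Igfbp4 (1437405_a_at) and Igfbp7 (1423584_at) followed the fibroblast order, and Igfbp5 followed the reverse. Healthy skin kept this only for Igfbp7. There Igfbp4 was lowest in replicate 3, while Igfbp5 and the fibroblast mean were both lowest in replicate 1. Over all 6 arrays Pearson r with the fibroblast mean was 0.91 for Igfbp4 (1437405_a_at) and 0.40 for Igfbp7 (1423584_at). The other Igfbp4 probe sets ranged from -0.65 (1423757_x_at) to 0.86 (1437406_x_at). For the other Igfbp7 probe sets r was 0.07 (1423585_at) and -0.525 (1437804_at). The Igfbp5 probe sets had r = -0.37 and -0.62 with the fibroblast mean. With the pericyte and smooth muscle mean Igfbp7 had r = 0.88 on 1423584_at, 0.76 on 1423585_at and -0.13 on 1437804_at. On 1423584_at r was also 0.775 with the lymphatic endothelial and 0.699 with the pan-endothelial mean. The array of tumour replicate 3 also had the highest background (3.91) and the highest hybridization-control level (12.96, log2) of all arrays. Its share of probe sets above background, 39.6%, was the lowest, against 48.4% and 46.6% in tumour replicates 1 and 2. Healthy-skin replicate 1 was close, with 41.7%. The part of these cells and of these array properties in the values was not tested.

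**Figure D3:**
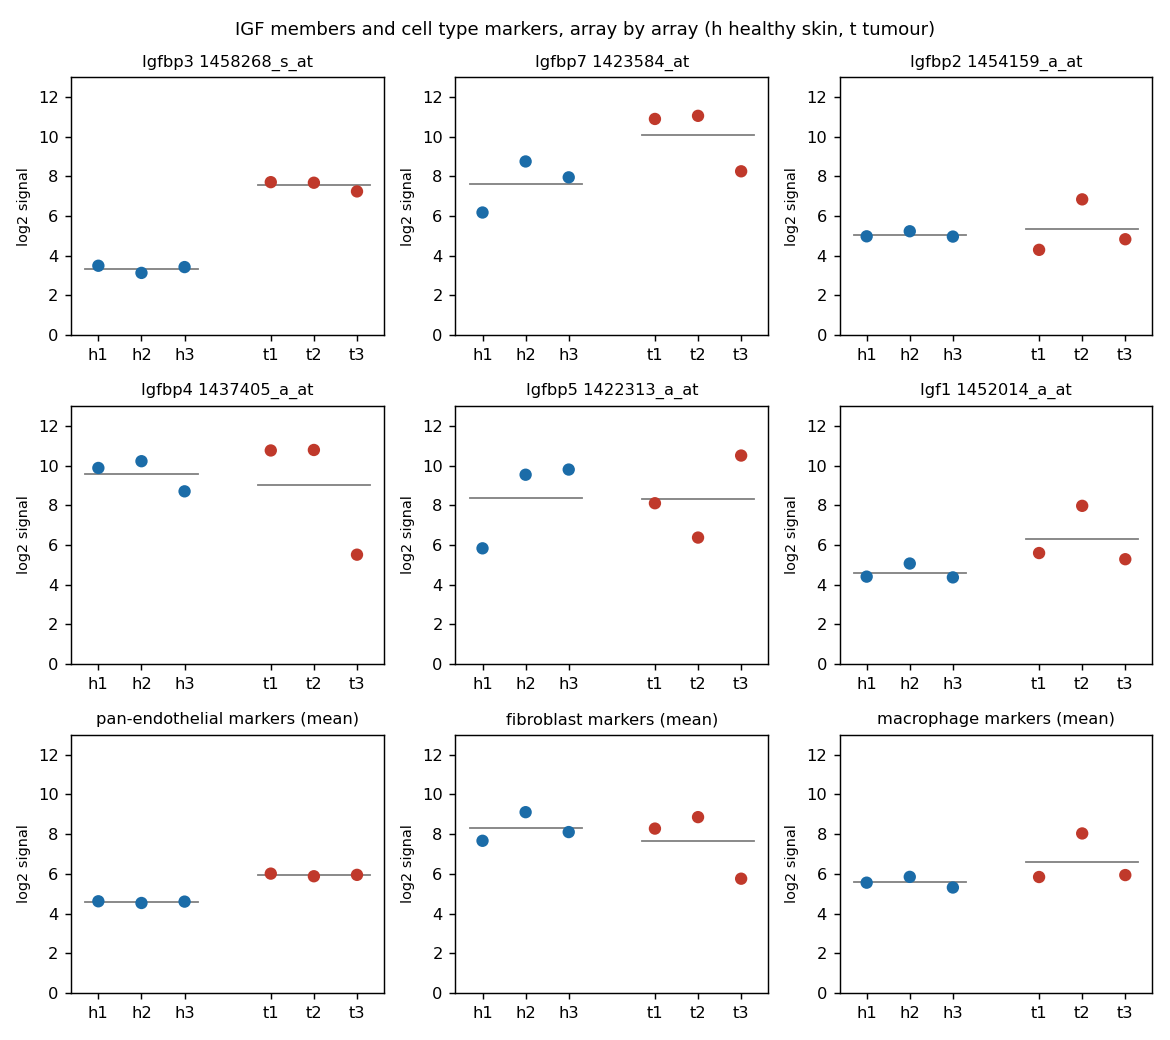
Log2 signal of 6 IGF probe sets (upper and middle rows) and mean log2 signal of the pan-endothelial, fibroblast and macrophage marker lists (lower row) on each array, h1 to h3 healthy skin in blue and t1 to t3 tumours in red; grey lines are group means. Igfbp3 separates the groups, Igfbp4 drops to 5.51 in t3 where the fibroblast mean is 5.76, and Igf1 and Igfbp2 peak in t2, where the macrophage mean is 8.04.

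Igfbp2 and Igfbp6, which bind IGF-II with preference, had 1 probe set each. Igfbp2 had 4.98, 5.23 and 4.97 in healthy skin and 4.30, 6.84 and 4.83 in tumours. Tumour replicate 2 alone was high, and the other tumour samples lay below all healthy ones. Its difference was 0.26 and became -0.49 without that sample. Igfbp6 varied little, with 4.70, 4.67 and 4.74 in healthy skin and 5.08, 4.94 and 4.53 in tumours (difference 0.15, standard error 0.27). Of the genes next to each other on a chromosome, Igfbp1 was below background on all 6 arrays (1418918_at, 2.05 and 2.28 on average) beside Igfbp3. Tumour replicate 2, the highest sample for Igfbp2, was among the lowest pair on both Igfbp5 probe sets.

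Igf1 had 4 probe sets, of which only the brightest, 1452014_a_at, was above background on all arrays. It had 4.40, 5.06 and 4.36 in healthy skin and 5.59, 7.97 and 5.28 in tumours. All tumour samples were higher than all healthy ones, but replicate 2 made most of the mean difference of 1.67 (standard error 0.72), which was 0.83 without it. Of the others, 1437401_at was above background on 2 arrays of each group, which overlapped, with healthy-skin replicate 2 highest at 5.35. The probe sets 1419519_at and 1434413_at were above background on 1 healthy-skin array each and on no tumour array, so they give no direction. Macrophages are a known source of IGF-I. The mean of 11 macrophage markers was 8.04 in tumour replicate 2, 5.84 and 5.94 in tumour replicates 1 and 3, and from 5.31 to 5.85 in healthy skin. Of the 11 markers, from 8 to 11 were above background in healthy skin and from 9 to 11 in tumours, and their part in the Igf1 and Igfbp2 values of that sample was not tested.

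Igf2, a growth factor gene mostly silent in adult mouse tissue, was near background. On 1448152_at it had 3.70, 3.53 and 3.65 in healthy skin and 3.89, 3.80 and 4.47 in tumours. The tumour samples were higher without overlap, by 0.43 on average with a standard error of 0.29. The second Igf2 probe set was below background on every array (2.38 and 2.40 on average).

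The receptors gave no shared direction over their probe sets. For Igf1r, 1452982_at had 1.94, 1.90 and 2.07 in healthy skin and 5.35, 5.32 and 2.13 in tumours. Tumour replicates 1 and 2 were above background, and replicate 3 lay only just above the healthy samples, below background. Counted from background, the tumour mean was at least 1.89-fold higher (measured means 1.97 ± 0.09 and 4.27 ± 1.85, limma adjusted p = 0.731). Tumour replicates 1 and 2 alone carried this fold. The 3 Igf1r probe sets above background on all arrays differed by only 0.08, 0.10 and 0.21, and the last of them, 1426565_at, stayed between 4.96 and 5.57. The remaining one, 1446303_at, was below background on every array (2.26 and 2.43 on average). For Igf2r, 1424112_at had 3.51, 2.96 and 2.06 in healthy skin, all below background, and 3.83, 3.71 and 4.15 in tumours, all just above it. Between the group means this is at least 1.46-fold, counted from background (measured means 2.84 ± 0.73 and 3.90 ± 0.23, limma adjusted p = 0.756). The brighter Igf2r probe set, 1424111_at, had 4.49, 5.49 and 4.43 in healthy skin and 4.26, 4.87 and 5.23 in tumours, with a difference of -0.02. A further probe set annotated to both Igf2r and the antisense transcript Airn was left out.

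Other genes of the pathway were taken as a list of 34, of which 32 had a probe set with 1 symbol, each represented by its brightest. In limma's test none passed an adjusted p of 0.05, and 4 had an unadjusted p under 0.05, against 0.0055% and 7.5% of all 18193 genes. Of the 32, 14 differences were above 0 and 18 below, with a median of -0.17 against 0.08 over all genes. Gab1, a docking adaptor of receptor tyrosine kinases, had 5.57, 5.83 and 6.72 in healthy skin and 5.14, 4.85 and 5.11 in tumours (difference -1.0, standard error 0.37). Its other probe sets were below background on all tumour arrays and on 1 healthy-skin array each. Of these, 1448814_at had groups that overlapped. Counted from background, its healthy-skin mean was at least 1.72-fold above the tumour mean (measured means 4.37 ± 1.16 and 3.43 ± 0.22, limma adjusted p = 0.867). The probe set 1417694_at was too dim for a fold. Foxo1, a transcription factor held out of the nucleus by insulin and IGF signalling, differed by -1.0 on its brightest probe set, but by 1.75 on 1416982_at, where all healthy samples were below background and all tumour samples above it (at least 2.16-fold, measured means 2.71 ± 0.13 and 4.46 ± 0.38; limma adjusted p = 0.312). Grb2, the adaptor that links receptors to RAS, differed by 1.17 and by 0.71 on its second probe set. Igf2bp3, an RNA-binding protein of Igf2 transcripts, differed by 1.10 on 1422610_s_at, while its other 5 probe sets were below background on all arrays of both groups.

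Among genes that act on the binding proteins, Pappa, which encodes the protease that cuts Igfbp4 and Igfbp5, had 4.33, 4.85 and 4.44 in healthy skin and 4.18, 3.81 and 4.20 in tumours. On this probe set, 1432591_at, all tumour samples were lower, by 0.48 on average with a standard error of 0.29. On 1427633_a_at the groups overlapped (difference -0.26), and all tumour samples were below background. The remaining Pappa probe set, 1432592_at, was below background on every array. Stc1, whose product inhibits PAPP-A, was below background in healthy skin (2.79, 2.51 and 2.53) and above it in tumour replicates 1 and 3 (4.25 and 4.57) but not in replicate 2 (2.29). Igfals, the acid-labile subunit that joins Igfbp3 and IGF in a circulating complex, had 4.60 ± 0.36 in healthy skin and 5.15 ± 0.23 in tumours. Pdpk1, a kinase downstream of the receptors, differed by -0.60 on its brightest probe set. On its other one, 1415729_at, tumour replicate 2 had 12.60 and the other 5 arrays between 4.69 and 6.22. The other receptors of the list, Insr, Insrr, Lrp1 and Tmem219, all had differences below 0, from -0.05 to -1.60, and all overlapped between groups.

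The genes whose signal most resembled Igfbp3 (1458268_s_at) over the 6 arrays were Zwint (Pearson r = 0.990), C5ar1 (0.985), Nmb (0.972), Gpr137b (0.969), Cldn5 (0.961) and Akap2 (0.959). They were taken from 5443 probe sets with an SD of at least 1, and with 6 arrays in 2 groups any gene whose groups lie far apart comes high in such a ranking. Zwint, a kinetochore gene, had 4.19, 3.67 and 4.0 in healthy skin and 6.55, 6.45 and 6.70 in tumours on 1444717_at. Gpr137b, a lysosomal membrane protein gene, had 3.28, 2.43 and 3.06 against 5.88, 5.04 and 5.59. Akap2, an anchor of protein kinase A, had 4.92, 4.50 and 5.16 against 6.70, 6.82 and 7.34. Each of the 6 had its healthy and tumour samples apart without overlap, as Igfbp3 did. With marker means, Igfbp3 (1458268_s_at) had r = 0.996 for pan-endothelial, 0.762 for lymphatic endothelial and -0.891 for keratinocyte markers. For 1423062_at these values were 0.911, 0.653 and -0.833. The means of these lists were also apart between the groups, so such values come high in the same way. The part of these cells in the Igfbp3 signal was not tested.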

How the data were processed

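The authors deposited probe set intensity values on a linear scale, tied to RMA (background correction, quantile normalization, summary per probe set) per the submitters' processing notes; its software, version and filters are not given in the sources that were used. Array medians lay between 9.49 and 10.93, which showed the linear scale, and log2 was taken without a pseudocount. Of 45101 probe sets, 64 controls were left out. Symbols came from the platform annotation: a single symbol for 34945 probe sets, several for 932 and no symbol for 9160. All 10 IGF symbols matched RefSeq. A gene of a list was represented by its probe set of highest mean.

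Groups were compared with limma 3.58.1 (lmFit, eBayes, two-sided, R 4.3.3), Benjamini-Hochberg adjusted over 45037 probe sets, without a block, after a check on simulated data. P-values set the difference of the group means against the spread within groups, which limma moderates over all probe sets. With 3 arrays a group, precision is limited. Members, lists, 9 of them cell type markers, and alternatives were chosen with earlier results of these data known. Every probe set of each IGF gene was named, then up to 8 pathway genes by smallest p and 6 genes by likeness to Igfbp3. Of the marker lists not described in the results, adipocyte markers averaged 4.29 to 4.50 in healthy skin and 3.87 to 4.81 in tumours, melanocyte markers 3.41 to 3.62 and 3.45 to 3.74, and skeletal muscle markers 3.33 to 4.16 and 3.93 to 4.55. No array duplicated another.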

Additional observations from a re-analysis of the deposited data

How the results depend on the processing

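The alternatives were a replicate block, each sample left out, a filter on dim probe sets, a second quantile normalization, centring on array medians, trended and robust eBayes, array weights, a pseudocount of 16 and the hybridization-control level as a covariate. The count of IGF probe sets past the threshold, 1, became 0 with the replicate block, centring, trended and robust eBayes, the pseudocount and the covariate, and 0 to 2 with samples left out. Igfbp3 (1458268_s_at) kept its direction in all 14 alternatives and passed in 4, with differences from 2.95 to 4.34 and limma adjusted p from 0.0165 to 0.422 (0.162 with the block). The count over all probe sets, 2, became 22 with array weights, 21 with the filter, 1 with trended and robust eBayes, and 0 with the block, centring, the pseudocount and the covariate, and 0 to 23 with samples left out. The median difference over IGF probe sets, 0.11, was 0.069 with centring, 0.078 with array weights, 0.079 with the pseudocount, 0.21 after quantile normalization, 0.245 with the covariate and from 0.11 to 0.34 with samples left out. No pathway gene passed in any alternative. Of the 28 IGF probe sets, 14 kept their sign throughout and 14 changed it at least once, with main differences of at most 0.80 in size. Causes were not tested. The labels name no animal or day behind a replicate number, so the number was not taken to pair samples. Correlations of deviations were 0.04, 0.10 and -0.01 for samples of the same number and from -0.15 to 0.12 for the others. With 3 samples a group these values cannot decide whether samples were paired. Signal near background limits Igf2, the dim Igf1 and Igf1r probe sets and the healthy-skin level of Igfbp3.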
